A study of Mus musculus with 5 samples.

Results

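The genes described are 10 transcription factors that lay out the front of the neural tube in the embryo: Otx1, Otx2, Emx1, Six3, Fezf1, Dmrt3, Nr2f1, Nr2f2, Irx2 and Pax6. They are 10 of the 16347 gene rows in a table of read counts from 1473 single cells of adult mice. They were chosen by their read counts across regions in earlier results of these data, so their levels across groups are a description, without a test. All mice were 3 months old. Cells with the genotype FoxJ1CreERT2 R26TdT, an inducible Cre under the promoter of the ciliated-cell gene Foxj1 with a tdTomato reporter, came from 10 mice, 5 females and 5 males. From these mice, 240 cells were from the lateral ventricle, 245 from the third ventricle, 114 from the spinal cord and 547 from the midbrain aqueduct. Another 327 cells came from the midbrain of 7 female Nkx2-2Cre R26TrapC mice, in which Cre is under the promoter of Nkx2-2. Each group is 1 sample pooled from several animals, and no label ties a cell to a mouse. The spread of the results is therefore given over blocks of 96 neighbouring well numbers, each with at least 10 cells of the group, and no p-value can be had.

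Cells of both midbrain samples were split by their reads in CPM, counts scaled to the total of the cell or group. Those with Ccdc153, a gene of motile cilia, at 1000 CPM or more formed the Ccdc153 cells, 317 in the Foxj1 line and 19 in the Nkx2-2 line. Of the others, those with at least 500 CPM of Sspo, which encodes SCO-spondin, the secreted protein of the subcommissural organ, formed the Sspo cells, 196 and 12. Those with at least 500 CPM of the myelin gene Mog formed the Mog cells, 0 and 243, and 34 and 53 cells remained. Near the Ccdc153 threshold, 27 Foxj1 line midbrain cells lay within a factor of 2 above it and 44 within a factor of 2 below. Few cells lay near the Sspo threshold: 0 within a factor of 2 above it and 9 within a factor of 2 below it.

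During development the neural tube is divided along its length by transcription factors whose domains overlap. Otx genes mark the forebrain and midbrain, Six3 and Fezf1 the most anterior neural plate, Emx1 and Dmrt3 the dorsal telencephalon, and Iroquois genes territory behind the Six3 domain. Ependymal cells, the ciliated cells that line the ventricles and the central canal, descend from the radial glia that once carried these factors.

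Median depth was 606241.5 to 1362236 reads per cell over the 10 groups, deepest in the Mog cells. The 8 ependymal markers summed to between 8286 and 13981 CPM in lateral ventricle cells, third-ventricle, spinal cord and midbrain Ccdc153 cells. They summed to 3684 CPM in the midbrain Sspo cells and 33.7 CPM in the Mog cells. The third-ventricle columns carry the word tanycytes in their names. All 245 cells had 0 reads of Rax, a defining tanycyte gene, as had the lateral ventricle cells, and 99.6% had a read of Ccdc153. The 4 tanycyte markers in the table summed to 83.1 CPM in third-ventricle cells and 82.8 CPM in lateral ventricle cells. In third-ventricle cells Scn7a stood at 72.5 CPM, Col23a1 at 9.62 CPM and Vcan at 0.937 CPM. The Sspo cells rest on Sspo and Spdef alone and are called by the gene that chose them. No column name and no cell's set of counts occurred more than once. Intervals below are exact 95% Poisson intervals for CPM and Clopper-Pearson intervals for shares of cells. Because the reads carry no molecular identifiers, these intervals cover counting error only. CPM is not divided by gene length, so it is compared here between groups and not between genes.

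Otx1 and Otx2, homeodomain factors without which the forebrain and midbrain do not form properly in the mouse, were read in lateral ventricle cells and in the midbrain and were nearly absent elsewhere. Otx2 (GRCm38 chromosome 14, 48657677 to 48673819, minus strand) stood at 125 CPM in lateral ventricle cells (interval 123 to 127), 2.28 CPM in third-ventricle cells and 11.3 CPM in spinal cord cells. In the midbrain it stood at 314.8 CPM in the Sspo cells and 127 CPM in the Ccdc153 cells. Over blocks it ranged from 119 to 132 CPM in lateral ventricle cells and from 104 to 149.6 CPM in the midbrain Ccdc153 cells, so these 2 groups overlapped. The blocks of the midbrain Sspo cells, at 268 to 446 CPM, lay above both.

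Block levels of Otx1 (chromosome 11, 21994764 to 22002897, minus strand) separated lateral ventricle from midbrain Ccdc153 cells where those of Otx2 overlapped. Otx1 stood at 32.9 CPM in lateral ventricle cells, 2.02 CPM in third-ventricle cells and 3.14 CPM in spinal cord cells. It reached 218.5 CPM in the midbrain Sspo cells and 59.35 CPM in the midbrain Ccdc153 cells. The block ranges did not overlap between the midbrain Sspo cells (141 to 272 CPM), the midbrain Ccdc153 cells (43.55 to 83.7 CPM) and the lateral ventricle (28.7 to 37.9 CPM). The third-ventricle and the spinal cord overlapped each other near 0.

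**Figure D1:**
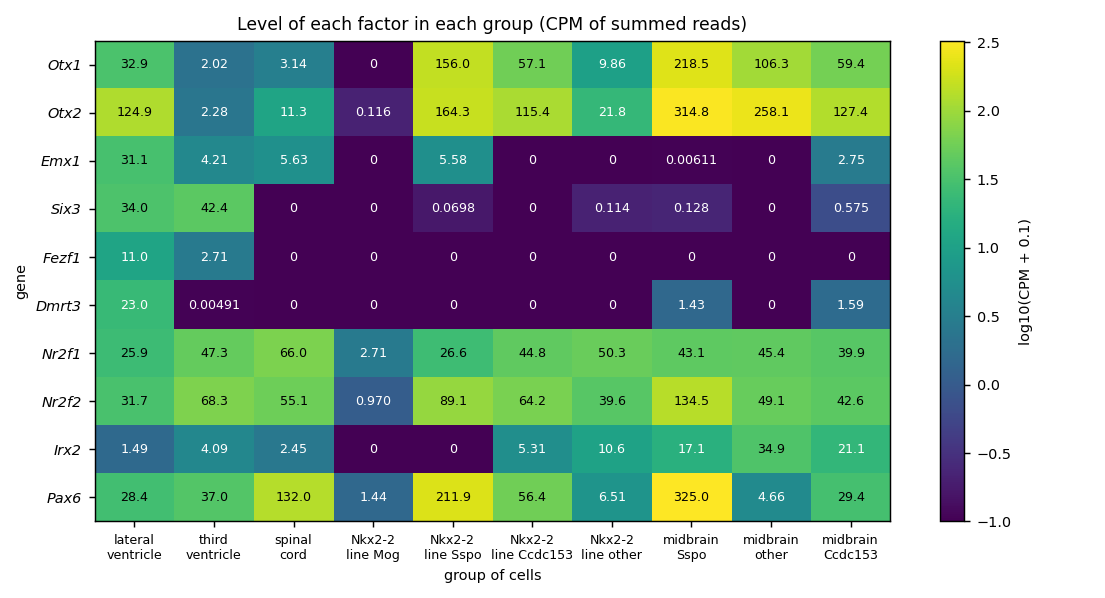
Level of each factor (rows) in each of the 10 groups of cells (columns), as CPM of the reads summed over the group. Colour is log10(CPM + 0.1) and the printed number is CPM. Otx1 and Otx2 are bright in lateral ventricle cells and the midbrain groups, Dmrt3 and Fezf1 in lateral ventricle cells, Six3 in both forebrain ventricles, and the Mog column is dark for all 10 genes.

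The low level of Otx2 in spinal cord cells came from a few cells. There, 3 of 114 cells held 99.7% of its reads, and all 3 had 0 reads of the 19 Hox genes in the table, which mark the posterior neural tube. Of the other 111 spinal cord cells, 1 had no Hox read and the median cell had reads of 6. The Otx2 level was 268 CPM in the 4 spinal cord cells without a Hox read and 0.0331 CPM in the 110 with one. These cells were singled out after their values were seen, and how they came to be in the sample was not tested. Spinal cord Otx1 came from 1 cell with 97.0% of its reads, and that cell had reads of 2 Hox genes. In third-ventricle cells, 5 cells held 99.6% of the Otx2 reads. None of these 5 had Six3 at 10 CPM or more, against 96 of the other 240 third-ventricle cells.

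Of the members, 9 of 10 matched a RefSeq promoter (GRCm38.p6, 250 bases before to 50 after a start), with 14 start sites in all, and Otx1 did not match. Each was searched on both strands for TAATCC (an OTX-type site), TAATTA (a homeodomain core) and AGGTCA (a nuclear receptor site). Of all 32851 promoters, 7.06% held TAATCC, 5.29% held TAATTA and 16.3% held AGGTCA. Otx2, at 2 of its 4 start sites, and Nr2f2 held a match among the members. The Otx2 window with the most matches and the Nr2f2 window are shown, the only ones with an OTX-type match. Both genes had their highest levels in the midbrain Sspo cells, described below. So did Pax6, whose windows held no match, and Otx1, which has no window. The Otx2 window is chr14:48665060-48665359 on the minus strand and the Nr2f2 window is chr7:70366697-70366996 on the minus strand. Capitals mark TAATCC, its reverse complement GGATTA, and TAATTA, which is its own reverse complement.
Otx2: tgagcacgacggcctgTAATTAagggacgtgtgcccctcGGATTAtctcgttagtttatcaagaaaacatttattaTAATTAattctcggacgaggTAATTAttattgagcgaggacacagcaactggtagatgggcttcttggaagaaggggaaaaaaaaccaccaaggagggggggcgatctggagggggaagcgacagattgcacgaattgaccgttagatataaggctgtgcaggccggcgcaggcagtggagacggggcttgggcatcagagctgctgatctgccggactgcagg
Nr2f2: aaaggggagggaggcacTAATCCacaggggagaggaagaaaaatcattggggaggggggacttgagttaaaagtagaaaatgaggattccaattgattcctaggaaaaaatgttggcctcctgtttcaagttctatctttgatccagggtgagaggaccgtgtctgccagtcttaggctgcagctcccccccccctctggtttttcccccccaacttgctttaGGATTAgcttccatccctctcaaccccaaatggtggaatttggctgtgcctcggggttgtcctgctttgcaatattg
The Otx2 window held 3 matches of TAATTA and 1 of TAATCC, and the Nr2f2 window held 2 of TAATCC, counting both strands. No measurement of binding was made at them.

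The dorsal telencephalic factors were read mainly in lateral ventricle cells. Dmrt3, a DM-domain factor of the embryonic cortex (chromosome 19, 25610301 to 25623921, plus strand), stood at 23.0 CPM there (22.4 to 23.7). It had 1 read in third-ventricle cells, 0 reads in spinal cord cells, 1.43 CPM in the midbrain Sspo cells and 1.59 CPM in the midbrain Ccdc153 cells. The 3 lateral ventricle blocks, at 15.0 to 31.5 CPM, lay above every block of the other groups, where the highest was 13.0 CPM. In that block, of 28 midbrain Sspo cells, 1 cell held all 234 Dmrt3 reads of its group.

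Emx1, the homeodomain factor of cortical progenitors (chromosome 6, 85187438 to 85204462, plus strand), stood at 31.15 CPM in lateral ventricle cells. Its level was 4.21 CPM in third-ventricle cells and 5.63 CPM in spinal cord cells, where 2 cells held all 533 reads. In the midbrain it had 1 read in the Sspo cells and 2.75 CPM in the Ccdc153 cells. The lateral ventricle blocks, at 25.7 to 41.8 CPM, did not overlap those of the other 4 groups, and neighbours in the order of those 4 overlapped.

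Fezf1, a zinc finger repressor of the anterior forebrain (chromosome 6, 23245044 to 23248362, minus strand), was read in forebrain cells only. It stood at 11.0 CPM in lateral ventricle cells (blocks 8.32 to 13.9) and 2.71 CPM in third-ventricle cells (blocks 1.32 to 4.42). All of its reads came from these 2 groups, with 0 reads in each of the other 8. A count of 0 reads allows up to 0.0317 CPM in spinal cord cells, 0.0183 CPM in the midbrain Sspo cells and 0.0117 CPM in the midbrain Ccdc153 cells, taking 3 reads over the group. Few cells carried it, 19 of 240 in lateral ventricle cells (7.92%, interval 4.83 to 12.1%), and 1 of them held 18.1% of the reads.

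Six3, a factor of the anterior neural plate, eye field and hypothalamus (chromosome 17, 85613608 to 85629302, plus strand), was shared by both forebrain ventricles. It stood at 34.0 CPM in lateral ventricle cells (blocks 24.4 to 39.8) and 42.4 CPM in third-ventricle cells (blocks 33.4 to 52.3), which overlapped. Other groups held little: 0 reads in spinal cord cells, 0.128 CPM in the midbrain Sspo cells and 0.575 CPM in the midbrain Ccdc153 cells. Its share of cells at 10 CPM or more was 38.3% in lateral ventricle cells and 39.2% in third-ventricle cells. The antisense RNA Six3os1 overlaps Six3, and without strand the reads of the pair cannot be told apart. Six3os1 stood at 30.9 CPM in lateral ventricle cells and 38.45 CPM in third-ventricle cells and had at most 1 read in each of the other 8 groups.

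Reads of forebrain members in the midbrain Ccdc153 cells came from the first of 2 sequencing projects, which by the order of wells also held the other 3 regions. Emx1 stood at 3.90 CPM in the 232 cells of the first project and 0 in the 85 cells of the second. Dmrt3 stood at 2.26 and Six3 at 0.813 CPM in the first project, and both at 0 in the second. Few of the 317 cells had them at 10 CPM or more: 6 for Emx1, 4 for Dmrt3 and 3 for Six3. The cell with the most reads held 45.9% of those of Emx1, 50.5% of Dmrt3 and 48.3% of Six3. With so few carriers, 0 reads in the 85 cells cannot show a difference between projects. Otx2 was read in both, at 119.5 CPM in the first and 146.5 CPM in the second, and Irx2 likewise, at 22.2 and 18.3 CPM. Whether the project had a part in the difference was not tested.

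Nr2f1 and Nr2f2, the orphan nuclear receptors COUP-TFI and COUP-TFII that pattern the cortex and the ventral telencephalon, were read in every region. Nr2f1 (chromosome 13, 78188973 to 78199757, minus strand) stood at 25.9 CPM in lateral ventricle cells, 47.3 in third-ventricle cells and 66.0 in spinal cord cells. It was 43.1 CPM in the midbrain Sspo cells and 39.9 CPM in the midbrain Ccdc153 cells. All neighbours in this order had overlapping blocks. Nr2f2 (chromosome 7, 70351944 to 70366735, minus strand) stood at 31.7 CPM in lateral ventricle cells, 68.3 in third-ventricle cells and 55.1 in spinal cord cells. In the midbrain it stood at 134.5 CPM in the Sspo cells and 42.6 CPM in the Ccdc153 cells. Blocks of the midbrain Sspo cells spread from 61.4 to 240 CPM and overlapped those of the midbrain Ccdc153 cells, at 13.3 to 82.2 CPM. Both receptors were at their lowest ependymal level in lateral ventricle cells.

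Irx2, an Iroquois homeodomain factor (chromosome 13, 72628820 to 72634198, plus strand), was highest in the midbrain cells of the Foxj1 line. It stood at 1.49 CPM in lateral ventricle cells, 4.09 in third-ventricle cells and 2.45 in spinal cord cells. In the midbrain it stood at 17.1 CPM in the Sspo cells and 21.1 CPM in the Ccdc153 cells. Its highest level, 34.9 CPM, was in the 34 remaining midbrain cells, 4 of which had it at 10 CPM or more. Each of the 7 blocks of the midbrain Ccdc153 cells, at 13.1 to 32.1 CPM, was above every block of the 3 other regions, of which the highest was 7.62 CPM. The midbrain Sspo blocks ran from 4.515 to 32.2 CPM and overlapped with both. In the Nkx2-2 line, Irx2 had 0 reads in the 12 Sspo cells and the 243 Mog cells. It stood there at 5.31 CPM in the 19 Ccdc153 cells (1.21 CPM without the top cell) and 10.55 CPM in the 53 remaining cells.

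Pax6, the paired-domain factor of eye, cortex and spinal cord progenitors, which the mouse subcommissural organ needs to form (chromosome 2, 105668900 to 105697364, plus strand), differed most within the midbrain among the members compared there. It stood at 28.4 CPM in lateral ventricle cells, 37.0 CPM in third-ventricle cells and 132 CPM in spinal cord cells. In the midbrain it was 325 CPM in the Sspo cells (322 to 328) and 29.4 CPM in the Ccdc153 cells (28.7 to 30.1). The blocks of the midbrain Sspo cells (226 to 420 CPM) and of the spinal cord (131.8 and 132.2 CPM) overlapped neither each other nor any other region. The antisense gene Pax6os1 overlaps Pax6 and stood at 11.7 CPM in the midbrain Sspo cells and 8.47 CPM in spinal cord cells, and at under 1 CPM in the other 3 groups.

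A member was compared where the higher side reached 10 CPM, and it counts as past the fold where it then differed at least 4-fold. Since these contrasts also chose the members, nothing is read from the counts. Against the mean of the other 3 ependymal groups, the lateral ventricle was higher in 3 of 9 members that could be compared, Emx1, Fezf1 and Dmrt3, where 0.287% of 10089 genes were. Dmrt3 differed by 43.2-fold, at 23.0 CPM in lateral ventricle cells and 0.533 CPM in the mean of the others. The third-ventricle was lower in 2 of 7, Otx1 and Otx2, where 0.984% of 10167 genes were. The midbrain Ccdc153 cells were higher in Otx1 (4.68-fold) and Irx2 (7.87-fold) and lower in Emx1 and Six3, of 8 compared, where 0.435% and 0.821% of 10111 genes were. The spinal cord was higher in Pax6 (4.17-fold) and lower in Otx1, Otx2 and Six3, of 7 compared, where 2.10% and 4.47% of 10346 genes were. Six3 was at least 808.9-fold lower there, taking 3 reads as the floor over the group. The Pax6 ratio of the spinal cord was under 4-fold with the class thresholds halved (log2 1.61), and that of Emx1 in the midbrain Ccdc153 cells was so within the first project (log2 -1.81). Fezf1, just above 10 CPM in lateral ventricle cells, dropped under that minimum without its top cell (9.05 CPM). The 4 contrasts share groups and are not independent of each other.

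Within the midbrain, the Sspo cells were set against the Ccdc153 cells of the same sample. One of 6 members compared, Pax6, was past the fold, 11.1-fold higher in the Sspo cells, where 7.03% of 10796 genes were higher and 7.39% lower. Otx1 was 3.68-fold, Nr2f2 3.16-fold and Otx2 2.47-fold higher in the Sspo cells, short of the fold. Nr2f1 and Irx2 differed by 1.08-fold and 1.24-fold. The median log2 ratio of all genes compared was 0.16. The antisense gene Otx2os1 overlaps Otx2 and stood at 31.45 CPM in the Sspo cells and 3.02 CPM in the Ccdc153 cells. The 4 choroid plexus markers in the table, another tissue that uses Otx2, summed to 1107 CPM in the Sspo cells and 583 CPM in the Ccdc153 cells. They did not move together: Ttr stood at 795 CPM in the Sspo cells and 37.5 CPM in the Ccdc153 cells and Kcnj13 at 79.9 and 6.87 CPM, while Folr1 stood at 232 and 501 CPM and Clic6 at 0.0306 and 37.9 CPM in the same order. Their part in the Otx2 level was not tested. In lateral ventricle cells these markers summed to 486 CPM in the 142 cells with Otx2 at 10 CPM or more and 426 CPM in the other 98, with Kcnj13 at 0 in both. The 4 endothelial markers, of a cell type where Nr2f2 is also known, were not analysed here.

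Because Ccdc153 was applied first, 16 midbrain Ccdc153 cells also had Sspo at 500 CPM or more. Their Pax6 level was 269 CPM, with 14 of 16 cells at 10 CPM or more, against 19.3 CPM in the other 301, with 44 cells. Otx1 stood at 197 CPM in the 16 and 53.5 CPM in the 301. Otx2 was closer, at 171 CPM in the 16 and 126 CPM in the 301. The ciliary gene Tmem212 was 479 CPM in the 16 and 3699 CPM in the 301, so by Pax6 and Otx1 the 16 lay nearer to the Sspo cells, and by Otx2 nearer to the other Ccdc153 cells. Without them, Otx1 also passed the fold between midbrain Sspo and Ccdc153 cells. Of all the midbrain Ccdc153 cells, the 58 with Pax6 held 2615 CPM of the summed Sspo and Spdef reads, against 76.2 CPM in the 259 without. The 58 include 14 of the 16 cells chosen by Sspo, and the other 44 were not taken alone.

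The oligodendrocyte-like Mog cells of the Nkx2-2 line, which held all 6 oligodendrocyte markers at 10 CPM or more, carried almost none of the factors. Otx1, Emx1, Six3, Fezf1, Dmrt3 and Irx2 had 0 reads in 243 cells at 1362236 reads per median cell, which allows up to 0.00850 CPM. Otx2 had 41 reads (0.116 CPM), 85.4% of them in 1 cell. Nr2f1 stood at 2.71 CPM, Nr2f2 at 0.970 CPM and Pax6 at 1.44 CPM. Against the midbrain Ccdc153 cells, 6 of 6 members compared were lower past the fold, where 26.5% of 10476 genes were. Otx1 was at least 6979-fold lower against the 3-read floor, Otx2 1096-fold and Nr2f1 14.7-fold. The median log2 ratio of all genes compared was -0.52. The glial factor Sox9 was 2.52 CPM in the Mog cells and 1247 CPM in the midbrain Ccdc153 cells. Line, number and sex of the animals, sequencing project and cell type changed together in this comparison and cannot be told apart: the Mog cells came from females and the second project only, while 232 of the 317 midbrain Ccdc153 cells came from the first project.

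A few Ccdc153 and Sspo cells came from mice of the Nkx2-2 line, processed in the second project only. The 19 Ccdc153 cells stood at 57.1 CPM of Otx1, 115 CPM of Otx2 and 44.8 CPM of Nr2f1, beside 59.35, 127 and 39.9 CPM in the Foxj1 line midbrain Ccdc153 cells. Pax6 stood at 56.4 CPM in the 19 cells and 29.4 CPM in the Foxj1 line cells, and Nr2f2 at 64.2 and 42.6 CPM in the same order. These levels rest heavily on single cells: without the cell with the most reads of each gene, the 19 cells stood at 28.5 CPM of Otx1, 80.8 CPM of Otx2, 26.7 CPM of Nr2f1, 29.9 CPM of Pax6 and 34.96 CPM of Nr2f2. Emx1, Six3, Fezf1 and Dmrt3 had 0 reads in those 19 cells, which allows up to 0.148 CPM. Irx2 stood lower, at 5.31 CPM against 21.1 CPM, with 77.8% of its reads in 1 of the 19 cells. The 12 Sspo cells of the Nkx2-2 line stood at 212 CPM of Pax6, 164 CPM of Otx2 and 156 CPM of Otx1. Mog reads stood at 278 CPM in the 19 cells and 109 CPM in the 12, with the oligodendrocyte markers summing to 5902 and 4350 CPM, and their part in these levels was not tested.

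Differences in level came with differences in how many cells carried a factor. Otx2 was at 10 CPM or more in 59.2% of lateral ventricle cells (52.7 to 65.45%), 84.7% of midbrain Sspo cells (78.9 to 89.4%) and 58.0% of midbrain Ccdc153 cells (52.4 to 63.5%). In the cells that carried it, its median was 171 CPM in lateral ventricle cells, 289 CPM in the midbrain Sspo cells and 189 CPM in the midbrain Ccdc153 cells. Pax6 was carried by 94.4% of midbrain Sspo cells (90.2 to 97.2%) and 18.3% of midbrain Ccdc153 cells (14.2 to 23.0%). The median of the carriers was 319 CPM in the midbrain Sspo cells and 127 CPM in the midbrain Ccdc153 cells.

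For other members the carriers differed less than the share did. Nr2f2 was carried by 30.8% of lateral ventricle cells and 63.3% of third-ventricle cells, with medians of 74.8 and 80.9 CPM in the carriers. Spinal cord Pax6 was carried by 65.8% of cells (56.3 to 74.4%) at a median of 126 CPM, next to 127 CPM in the midbrain Ccdc153 carriers. Irx2 reached 16.7% of midbrain Ccdc153 cells (12.8 to 21.3%) at 113.5 CPM in the carriers, and 4.08% of third-ventricle cells at 63.7 CPM. With each cell thinned to 100000 reads, 60.8% of lateral ventricle cells, 85.7% of midbrain Sspo cells and 58.4% of midbrain Ccdc153 cells kept any read of Otx2. Unthinned, these shares were 66.7, 87.8 and 64.7%. In the Mog cells, at most 2.47% carried any one member, the share for Nr2f2.

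**Figure D2:**
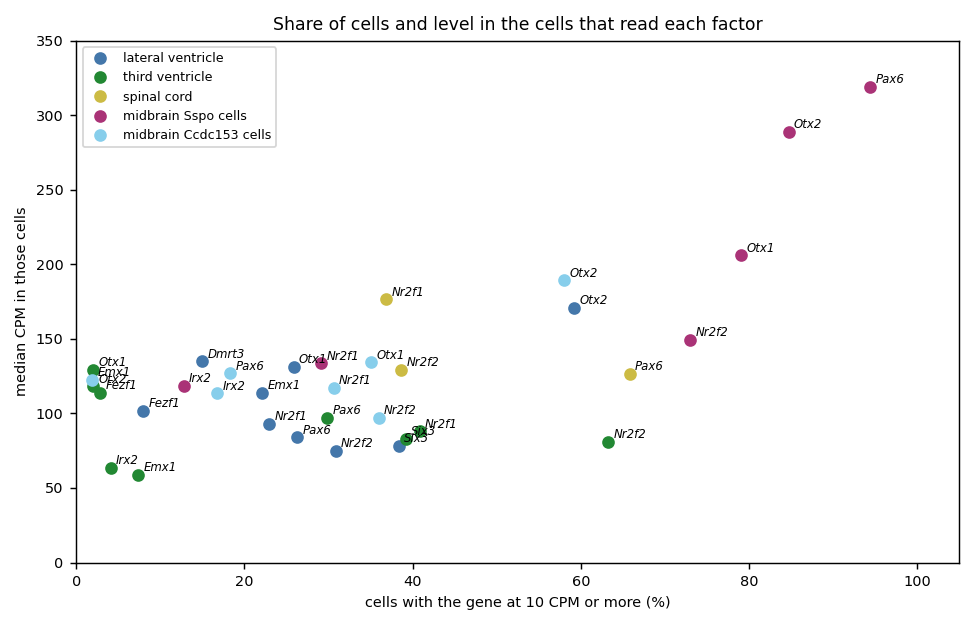
Share of cells with a factor at 10 CPM or more (horizontal axis, %) against the median CPM in those cells (vertical axis), one point per factor and group, where at least 5 cells carried the factor. In the midbrain Sspo cells Pax6, at 94.4% and 319 CPM, and Otx2, at 84.7% and 289 CPM, are high on both axes. CPM is not divided by gene length, so heights are compared between points of the same gene.

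The factors were then read together in single cells. For each pair, the number of cells with both at 10 CPM or more was set against the number expected from the product of the shares. Of the 45 pairs, those with at least 5 cells expected were counted, and a ratio of 1.5 or more was called together and 0.5 or less apart. No pair was apart in any group. In lateral ventricle cells, 6 of 31 counted pairs were together, and the ratios had a median of 1.21 and a range of 0.612 to 2.09.

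Otx1 with Pax6 had the highest ratio in lateral ventricle cells, 34 cells against 16.3 expected. It was 2.12, 2.05 and 1.89 in the 3 blocks. Pax6 stood at 47.8 CPM in the 62 cells with Otx1 and 21.3 CPM in the other lateral ventricle cells. Otx1 with Dmrt3 was found in 17 cells against 9.30 (ratio 1.83), at 1.56, 2.22 and 1.76 in the blocks. Emx1 with Pax6 was found in 23 cells against 13.9 (1.65), at 2.00, 2.15 and 1.14 in the blocks. Block 3 was the lowest for the last of these pairs. Other pairs of the same genes fell short of 1.5: Emx1 with Dmrt3 at 1.26, Otx1 with Emx1 at 1.17 and Dmrt3 with Pax6 at 1.48.

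The other pairs that were together in lateral ventricle cells involved Fezf1 or the nuclear receptors. Six3 with Fezf1 was found in 14 cells against 7.28 expected (1.92), and Fezf1 with Nr2f2 in 12 against 5.86 (2.05). Nr2f1 with Nr2f2 was found in 27 cells against 17.0 (1.59). In block 2 of the lateral ventricle no cell had both Six3 and Fezf1, with 0.713 expected. The lowest ratio was that of Emx1 with Nr2f2, 0.612. Otx1 and Otx2, whose levels were so alike across groups, were no more often together in a lateral ventricle cell than their shares gave (ratio 0.981). Of the 6 pairs, 5 were together under all 5 other ways of counting tried, which took any read, thinned the cells, left out the richest cells or set the expectation within blocks or within depth classes. Nr2f1 with Nr2f2 was together under all but the one that took any read. Otx1 and Otx2 were both carried by 36 of the 240 cells, Otx1 alone by 26, Otx2 alone by 106 and neither by 72.

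The ratios had a median of 0.999 in the midbrain Sspo cells and 1.17 in the midbrain Ccdc153 cells, beside 1.21 in lateral ventricle cells. None of 15 counted pairs was together in the midbrain Sspo cells, with ratios of 0.910 to 1.25. In the midbrain Ccdc153 cells 1 of 15 was, again Otx1 with Pax6, in 31 cells against 20.3 expected (1.53). In the 301 midbrain Ccdc153 cells with Sspo under 500 CPM the ratio was 1.45, under the threshold. With all 317 cells it was 1.31 when any read counted and 1.44 after thinning, so the call depends on the way of counting. Over blocks of the midbrain Ccdc153 cells it ranged from 0.804 to 2.40. None of 11 counted pairs was together in third-ventricle cells (0.746 to 1.22) and none of 3 in spinal cord cells (0.987 to 1.05). Where nearly all cells carry both genes a ratio cannot be far above 1, which limits the Sspo cells, and few pairs reached 5 expected cells outside the lateral ventricle. Cells of 1 sample are not replicates, so the difference between groups was not tested.

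**Figure D3:**
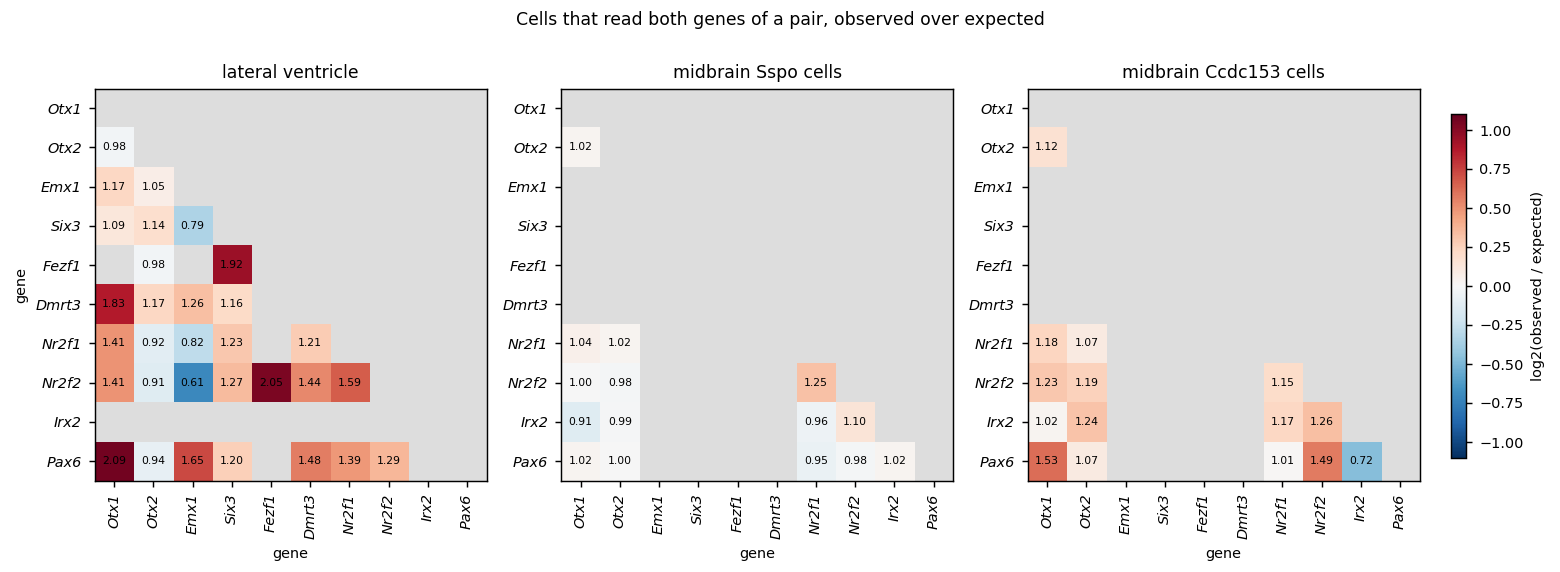
Observed over expected number of cells that carry both genes of a pair, in lateral ventricle cells, the midbrain Sspo cells and the midbrain Ccdc153 cells. Red is above 1 and blue below (colour on a log2 scale), and grey marks pairs with under 5 cells expected. The lateral ventricle panel has 6 pairs at 1.5 or more, led by Otx1 with Pax6 at 2.09, and the midbrain Sspo panel stays between 0.910 and 1.25.

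At 10 CPM or more, single cells were read with a small part of the set each. A factor not read in a cell may have been missed and not absent, and thinning changes read depth only. The mean number of the 10 factors per cell was 2.50 in lateral ventricle cells, 1.91 in third-ventricle cells and 1.48 in spinal cord cells. It was 3.74 in the midbrain Sspo cells and 1.99 in the midbrain Ccdc153 cells. At least 4 factors were carried by 27.1% of lateral ventricle cells, 59.7% of midbrain Sspo cells and 14.2% of midbrain Ccdc153 cells, and by 0 of 114 spinal cord cells. Every midbrain Sspo cell carried at least 1, while 12.9% of midbrain Ccdc153 cells and 93.4% of Mog cells carried none. With each cell thinned to 100000 reads and any read counted, the means were 2.61 in lateral ventricle cells, 3.81 in the midbrain Sspo cells and 2.07 in the midbrain Ccdc153 cells.

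The sets read in this way were diverse in lateral ventricle cells, with 107 different sets in 240 cells. The commonest was Otx2 alone (27 cells), then none (22) and Otx2 with Six3 (20). The midbrain Sspo cells repeated few sets: Otx1, Otx2, Nr2f2 and Pax6 made up 49 of 196 cells (25.0%), and the set of Otx1, Otx2 and Pax6 another 33. In the Nkx2-2 line, 4 of 12 Sspo cells had the same set of Otx1, Otx2, Nr2f2 and Pax6. The third-ventricle was led by Nr2f2 alone (33 cells) and Nr2f1 with Nr2f2 (26), and the spinal cord by Pax6 alone (28 of 114).

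**Figure D4:**
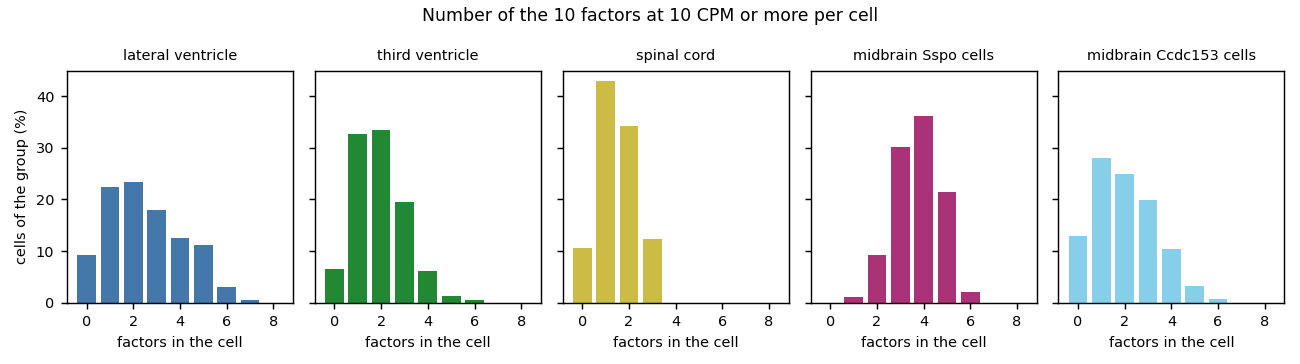
Number of the 10 factors at 10 CPM or more in a cell (horizontal axis) and the percentage of the group's cells (bars), for 5 groups. The commonest number is 4 in the midbrain Sspo cells (36.2% of cells, median 4) and 1 in the midbrain Ccdc153 cells (28.1%, median 2), and the spinal cord ends at 3.

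Other genes of the same maps were taken from lists. Among further forebrain factors, Sp8, a zinc finger factor and 1 of 2 compared, was past the 4-fold rule as higher in spinal cord cells. Of 10346 genes, 2.10% were. Sp8 stood at 11.1 CPM there and 6.495 CPM in lateral ventricle cells. It stood at 0.0294 CPM in third-ventricle cells and 0.129 CPM in midbrain Ccdc153 cells. Meis2 was read widely, at 41.15 CPM in lateral ventricle cells and 78.5 CPM in spinal cord cells, but at 0.0306 CPM in the midbrain Sspo cells and 28.9 CPM in the midbrain Ccdc153 cells.

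Of 18 midbrain and isthmus factors, 10 were in the table and 5 reached 10 CPM. Pax3 and Cnpy1, of 4 compared, were past the fold as higher in the midbrain Ccdc153 cells than in the other regions, where 0.435% of all genes were, with a list median log2 of 1.80 beside 0.00 over all genes compared. Cnpy1, an FGF signalling modulator of the isthmus in zebrafish, stood at 0.0245 CPM in the midbrain Sspo cells and 49.2 CPM in the midbrain Ccdc153 cells, opposite in direction to Pax6. Lmx1b, a LIM homeodomain factor, stood at 87.2 CPM in the midbrain Sspo cells and 12.9 CPM in the midbrain Ccdc153 cells. Pax3 stood at 55.2 and 13.8 CPM in the same order, Lmx1a at 17.3 and 4.65 CPM, and Gata3 at 10.1 and 8.54 CPM. Between these midbrain groups, Lmx1b was past the fold as higher and Cnpy1 as lower, of 5 compared, where 7.03% of all genes were higher and 7.39% lower. The list's median log2 was 1.90 beside 0.16 over all genes compared. Of 9 hypothalamic and eye field factors, 3 were in the table and Rax reached 10 CPM, at 11.3 CPM in the midbrain Sspo cells and 0.461 CPM in the midbrain Ccdc153 cells.

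Of 21 paralogs of the members, 11 were in the table and 6 reached 10 CPM. Irx2 had relatives with a wider reach. Irx3 stood at 9.14 CPM in lateral ventricle cells, 13.2 CPM in third-ventricle cells, 31.0 CPM in spinal cord cells, 40.6 CPM in the midbrain Sspo cells and 23.1 CPM in the midbrain Ccdc153 cells. Irx5 stood at 13.0 CPM in lateral ventricle cells and 22.65 to 26.2 CPM in the other 4 of these groups. Six5 stood at 60.7 CPM in the midbrain Sspo cells and 15.5 CPM in the midbrain Ccdc153 cells, and Six4 at 1 read and 5.82 CPM. Nr2f6, the third COUP-TF relative, stood between 6.695 and 10.9 CPM in the same 5 groups. All 5 paralogs compared were lower past the fold in the Mog cells than in the midbrain Ccdc153 cells, where 26.5% of all genes compared were. Pax3, 1 of 5 compared, was higher past it in the midbrain Ccdc153 cells than in the other regions, where 0.435% of all genes were.

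Genes with the most similar profile were found by Pearson's r of log2(CPM + 1) over the 10 groups, among 11447 or 11448 genes at 20 CPM or more in some group. These groups come from 5 samples, so r is a description. Otx1 and Otx2 were each other's nearest (r 0.975). The nearest to Six3 were its antisense partner Six3os1 (0.996), the collagen gene Col6a5 (0.968) and complement C3 (0.898). Fezf1 was nearest to Six3os1 (0.934) and Six3 (0.930). Dmrt3 was nearest to Ogn (0.887) and Il17b (0.847), Irx2 to Kdm3b (0.888), Klhl22 (0.886) and Pax3 (0.866), and Emx1 reached 0.877 at most. The nearest to Nr2f1 was Snx10 (0.965), the nearest to Nr2f2 was Sfxn1 (0.975), and the nearest to Pax6 was Gm5805 (0.968). Over single cells of the ependymal or Sspo group where each member was highest, no gene exceeded an r of 0.352, too weak in sparse counts to name a partner.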

How the data were processed

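Single cells were sorted into 96-well plates and made into Smart-seq2 libraries, a full-length cDNA method without molecular identifiers, per the labels' protocols. The main file, as the authors deposited it, gives raw counts: whole reads for each gene in each cell. A second deposited table held log2 values, which equalled log2(count / size factor + 1) within 0.01 for 100% of values, with 1 size factor per cell between 0.0875 and 6.00. The submitters' processing notes name the aligner STAR 2.3.1o, Seurat 3 and mm10. The counting tool, its annotation and its use of strand are not given in the sources used here.

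The first part of each column name gave its sample, and 0 columns had none. The starts Forebrain and Tanycytes were taken as lateral ventricle and third-ventricle cells, which rests on anatomy and on the other titles. Blocks and projects were taken from well numbers. All 1473 cells were kept, the shallowest at 108417 reads, and no doublet caller was run on sorted wells.

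Reads were summed over the cells of a group and divided by the group's total to give CPM (Python 3.11.15, scipy 1.17.1). With 1 sample per group, no test was run. Comparisons used the 4-fold rule, with 3 reads as the floor of a group at 0, and a self-test on simulated counts checked its code. The simulated counts had no spread between cells, so the self-test does not cover genes whose reads come from a few cells. The members and all gene lists were chosen with earlier results of these data known. The genes named were the members, the list genes that reached 10 CPM in some group, the genes with the nearest profiles, group-defining genes and antisense partners. Some genes of the forebrain list are not reported here. Cells of stray groups were singled out after their values were seen. Gene coordinates are from GENCODE vM21 (GRCm38, also called mm10) and promoters are RefSeq's (GRCm38.p6). Alternatives changed the scaling, fold, minimum, class thresholds, cells kept and the way pairs were counted.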

Additional observations from a re-analysis of the deposited data

How the results depend on the processing

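No paired analysis was possible because each group is 1 sample and no result comes from a test. No direction reversed under any alternative run. A fold of 2 in place of 4 gave 6 members past it for lateral ventricle cells (3 in the report), 4 for third-ventricle cells (2) and 4 between midbrain Sspo and Ccdc153 cells (1). That last count was 3 with no minimum CPM, 2 with class thresholds doubled and 2 with only the midbrain Ccdc153 cells under 500 CPM of Sspo, an alternative chosen after seeing the data, as were the expectations within blocks and within depth classes and the spinal cord cells with a Hox read. Other alternatives kept the 6 counts within 1.5 times, 71 of 77 values in all. The 1 pair together in the midbrain Ccdc153 cells became 0 when any read counted, within the first sequencing project, with class thresholds doubled and under 500 CPM of Sspo. It became 2 without the 2% of cells with the most genes and with class thresholds halved, where Nr2f2 with Pax6 joined it. With the cells thinned the count stayed at 1, but the pair was Nr2f2 with Pax6, at 1.59. The cause of these changes was not tested. Counts of pairs in the other groups stayed within 1.5 times, 58 of 64 values in all. Median-of-ratios scaling multiplied the Mog cells' library size by 0.727 and the midbrain Sspo cells' by 1.15. The Ccdc153 and Sspo cells of the Nkx2-2 line, 19 and 12, are too few for blocks. For each of 50 CPM levels, the lowest and the highest value with 1 block left out were kept. Of these 100 extreme values, 83 lay outside the counting interval of the level. The cells' spread is therefore wider than the intervals printed.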
